A study of Mus musculus with 10 samples.

Results

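Macrophages and monocytes of the failing mouse heart were followed through 38 genes that mark these cells, in bulk RNA of the left ventricle. The genes were taken by symbol from the count table, which held counts for 57185 genes, and all 38 were found there. They comprised 4 surface genes of resident macrophages (*Lyve1*, *Timd4*, *Folr2* and *Cd163*), 2 genes of monocytes (*Ly6c2* and *Plac8*), the growth factor *Csf1* and its receptor *Csf1r*, and 30 genes shared by macrophages or by leukocytes in general.

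All 10 mice were MLPKO-RAD floxed/floxed, that is, they lacked muscle LIM protein (MLP, the product of *Csrp3*), a deficiency that gives a dilated cardiomyopathy, and carried floxed alleles of *Rrad*, which encodes RAD, a brake on the L-type calcium channel. In 5 of them, here called cRADΔ/Δ-MLPKO and labelled MLPKO-cRADKO, the MYH6-MerCreMer transgene drove a tamoxifen-activated Cre from a cardiomyocyte promoter, and the 5 MLPKO mice had no transgene. Both groups received 1 intraperitoneal dose of tamoxifen of 100 mg/kg at 10 weeks of age, and hearts were taken 1 month later at an age that the labels give as 16 weeks. The mice were male, and polyadenylated RNA of the apical ventricle was sequenced as 1 library per mouse. Because the transgene was carried by 1 group alone, the loss of RAD and the presence of active Cre cannot be told apart.

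Resident macrophages settle in the heart largely before birth, renew themselves in place and carry scavenger and uptake receptors such as LYVE1, TIMD4, FOLR2 and CD163. Monocytes come from the bone marrow through the blood, are marked by Ly6C, and can turn into macrophages within the tissue. The receptor CSF1R, bound by CSF1 or by interleukin 34, keeps macrophages alive, and the transcription factor PU.1, the product of *Spi1*, sets the identity of myeloid cells.

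Libraries held from 33457406 to 49965101 counts, with a median of 43738141. Values are given as CPM, the counts of a gene per 1000000 counts of the genes tested, scaled by the TMM method. A gene was tested where at least 6 of the 10 mice had more than 10 counts of it, which left 13453 genes and 37 of the 38 genes described here, *Plac8* being the exception. At gene level *Rrad* did not separate the genotypes: 262, 268, 140, 163 and 282 CPM in MLPKO mice 1 to 5 and 196, 135, 202, 146 and 176 CPM in cRADΔ/Δ-MLPKO mice 1 to 5 (log2 fold change −0.38 ± 0.20 SE, edgeR adjusted p = 0.290). Cre acts in cardiomyocytes only, and a count over the whole gene does not show which exons were read, so this is no check of the labels. *Csrp3* was still counted in both groups (mean 1776 CPM in MLPKO and 840 CPM in cRADΔ/Δ-MLPKO). The macrophage label held, since *Adgre1*, *Csf1r*, *Cd68*, *C1qa*, *C1qb* and *C1qc* were all counted above 2 CPM in every mouse.

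Part of the macrophage genes carried the core letters that PU.1 binds just before their start. The motif searched was GAGGAA on either strand, TTCCTC being its other strand, in the 250 bases before each transcript start of the RefSeq promoter windows (build GRCm38.p6). Windows were at hand for 29 of the 38 genes, and 17 of the 29 (58.6%) held it, against 25.9% of 27025 genes with a window. The longer GAGGAAGT, which contains GAGGAA, was present in 2 of the 29, *Ly6c2* and *Pf4* (6.90%, against 2.79% of all genes). Both monocyte genes held GAGGAA and none of the 3 resident surface genes with a window (*Timd4*, *Folr2* and *Cd163*) did. These are too few genes to compare the 2 kinds. Such a match describes the letters only and is no measure of binding. *Adgre1*, *Csf1r*, *Lyve1*, *Tyrobp*, *Cd14*, *Spi1*, *Cd52*, *Clec4n* and *Maf* had no window. *Mpeg1*, *Lyz2* and *C5ar1* were among the genes with a window and no match. Whether the letters go with a difference between the genotypes was not tested. The match nearest the start is printed for some of the genes that held it, 5′ to 3′ on the strand of the gene, with the motif in capitals.
Ctss: gacacagggttgGAGGAAaactttgtcctg
Laptm5: gcagcctgtggcTTCCTCttttttgttctg
Cd53: tgcaagttcactGAGGAAcagttgactatc
Cbr2: gagctacccttgGAGGAAgcgggtcatgcc
Vsig4: ggggaagtgtgtGAGGAAactaggattctg
Pf4: tctgcagagcacTTCCTCat
Ly6c2: aacctggtcagaGAGGAAgt
These stretches lie at chr3:95526610-95526639 (*Ctss*, plus strand), chr4:130913266-130913295 (*Laptm5*, plus), chr3:106790171-106790200 (*Cd53*, minus), chr11:120732083-120732112 (*Cbr2*, minus), chrX:96293474-96293503 (*Vsig4*, minus), chr5:90772415-90772434 (*Pf4*, plus) and chr15:75111938-75111957 (*Ly6c2*, minus) of GRCm38.p6, whereas the counts and the positions of whole genes are on GRCm39 (GENCODE M39).

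Per kilobase of the canonical transcript, *Lyz2* was the most abundant of the 38 genes in MLPKO hearts. It encodes lysozyme and stood at 25.8 ± 5.07 CPM per kb (SD, n = 5), followed by the ligand gene *Csf1* at 15.1 ± 2.59 CPM per kb. *Cbr2* (9.01 ± 2.35 CPM per kb), *Stab1* (8.40 ± 0.969) and *F13a1* (7.88 ± 2.93) came next and did not differ from each other beyond their spread. Among the resident surface genes the order was *Lyve1* (2.80 ± 0.851 CPM per kb), *Cd163* (2.10 ± 0.773), *Timd4* (0.583 ± 0.354) and *Folr2* (0.580 ± 0.194), with the first pair and the last pair each within their spread. At the low end stood *Aif1* (0.362 ± 0.120 CPM per kb), *Plac8* (0.355 ± 0.273) and *Vsig4* (0.341 ± 0.197), which their spread does not separate. The monocyte gene *Ly6c2* was at 1.45 ± 0.376 CPM per kb. It is a near copy of *Ly6c1*, which endothelium also expresses and which stood at a mean of 79.8 CPM in MLPKO against 1.21 CPM for *Ly6c2*, so reads shared by the copies make the level of *Ly6c2* uncertain.

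The comparison of the genotypes asked whether macrophage and monocyte genes differed when RAD was deleted in cardiomyocytes of a heart already failing. Estimates of macrophage genes were higher in cRADΔ/Δ-MLPKO hearts almost throughout, by a median of 0.52 on the log2 scale, while the median of all genes tested was 0.01. Of the 37 genes tested, 35 had a higher estimate, and 52.1% of all genes did. No single gene of the 37 passed an adjusted p of 0.05 in the quasi-likelihood test of edgeR (background 2.74% of genes in either direction and 0.944% higher). At an unadjusted p under 0.05, 26 of the 37 were higher and none lower, where 10.1% of all genes were higher. These genes rise and fall together from mouse to mouse, so 26 genes are not 26 separate observations.

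The count of calls depended on the tool. DESeq2, the tool named in the study's methods, called 16 of the 37 genes, all higher (background 3.96%): *Ctss*, *Adgre1*, *Mpeg1*, *Folr2*, *Tyrobp*, *Cbr2*, *Laptm5*, *Vsig4*, *Maf*, *Cd163*, *Clec4n*, *Cd53*, *Pf4*, *Csf1r*, *C5ar1* and *Lyz2*. edgeR without a filter on low counts called 4, namely *Ctss*, *Mpeg1*, *Adgre1* and *Lyz2* (background 0.539% higher), all among the 16. limma-voom called 0. With single mice left out, edgeR called 10 genes without MLPKO mouse 4 and 3 without cRADΔ/Δ-MLPKO mouse 2 (*Mpeg1*, *Adgre1* and *Ctss*). It called 1 without MLPKO mouse 2 (*Adgre1*) and 0 in each of the other 7 fits. Over all genes tested, and in either direction, edgeR called 826 without MLPKO mouse 4, against 369 with all mice. It called 142 without cRADΔ/Δ-MLPKO mouse 2 and 347 without MLPKO mouse 2. In bulk tissue, more cells of a type and more RNA per cell cannot be told apart.

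1 library stood apart. cRADΔ/Δ-MLPKO mouse 3 had the highest CPM of the 10 mice for 32 of the 38 genes, and it held far more adipocyte transcripts than any other. The summed CPM of 8 adipocyte genes, a list chosen after the values were seen, was 138 in this mouse, between 0 and 1.18 in the other cRADΔ/Δ-MLPKO mice and between 0.127 and 1.72 in MLPKO mice. None of the 8 passed the filter, and *Lep* was at or near 0 throughout. Without this mouse the median log2 fold change of the 37 genes was 0.37, 33 had a higher estimate, and 20 had an unadjusted p under 0.05, all higher (background 8.7%). edgeR then called 0 and DESeq2 6 (*Ctss*, *Mpeg1*, *Adgre1*, *Tyrobp*, *Laptm5* and *Lyz2*). Over all genes tested, and in either direction, edgeR called 105 and DESeq2 885 without this mouse. The plot of adipocyte transcripts against the macrophage genes shows this mouse far from the others on the adipocyte axis. On the other axis it is the highest, at 0.97, with cRADΔ/Δ-MLPKO mouse 5 next at 0.63.

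**Figure D1:**
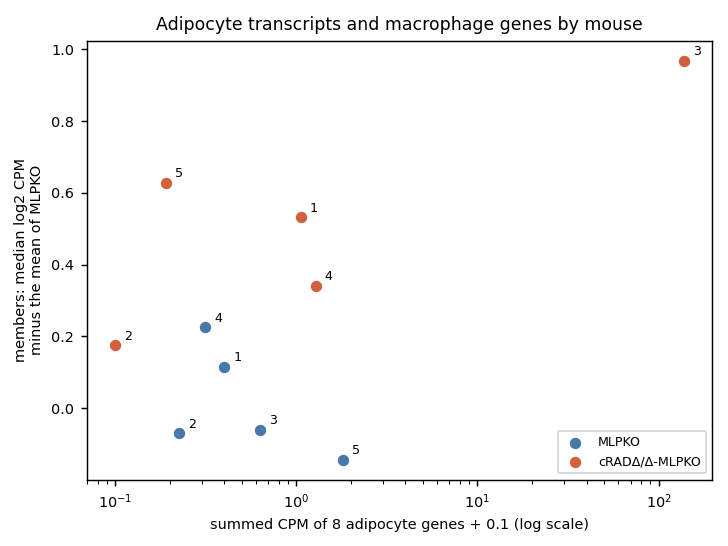
Summed CPM of 8 adipocyte genes plus 0.1 (x axis, log scale) against the median over 37 macrophage and monocyte genes of log2 CPM minus the MLPKO mean (y axis), 1 point per mouse with its number. cRADΔ/Δ-MLPKO mouse 3 lies far to the right and highest, and cRADΔ/Δ-MLPKO mouse 2 lies below MLPKO mouse 4.

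The resident surface genes were higher by estimate in cRADΔ/Δ-MLPKO hearts, most for *Folr2* and *Cd163* and least for *Timd4* and *Lyve1*. *Folr2* (chr7:101489195-101506401, minus strand) encodes a folate receptor of resident macrophages. Its levels were 0.717, 0.349, 0.612, 0.933 and 0.574 CPM in MLPKO mice 1 to 5, and 1.38, 0.871, 2.10, 1.00 and 1.97 CPM in cRADΔ/Δ-MLPKO mice 1 to 5. Only MLPKO mouse 4 and cRADΔ/Δ-MLPKO mouse 2 overlapped. The log2 fold change was 1.19 ± 0.32 (SE), with adjusted p = 0.0649 in edgeR and 0.0103 in DESeq2. *Folr2* shares sequence with the opposite-strand *Gm10602*, which had 1053 counts over the 10 mice against 429 for *Folr2*, and whether counting used the strand is not given in the sources used here. The log2 fold change of *Gm10602* was −0.18 ± 0.30 without the filter.

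*Cd163* (chr6:124281606-124307560, plus strand) encodes the receptor that clears haemoglobin bound to haptoglobin. It stood at 7.49, 7.35, 9.69, 15.0 and 6.71 CPM in MLPKO mice 1 to 5 and at 17.0, 10.3, 29.3, 16.3 and 11.96 CPM in cRADΔ/Δ-MLPKO mice 1 to 5. MLPKO mouse 4 lay within the range of the other group, and cRADΔ/Δ-MLPKO mouse 3 lay far above the rest. The log2 fold change of 0.88 ± 0.29 (edgeR adjusted p = 0.112, DESeq2 adjusted p = 0.0252) became 0.59 without cRADΔ/Δ-MLPKO mouse 3.

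*Lyve1* (chr7:110448585-110462460, minus strand) encodes a hyaluronan receptor that lymphatic endothelium also carries. Its levels were 14.3, 6.91, 12.9, 14.9 and 8.82 CPM in MLPKO and 17.1, 12.8, 20.2, 11.3 and 13.4 CPM in cRADΔ/Δ-MLPKO mice 1 to 5, so the groups overlapped widely (log2 fold change 0.37 ± 0.22, edgeR adjusted p = 0.362). The 6 lymphatic endothelial markers had a median log2 fold change of −0.02, with 0 called and 2 of 6 higher by estimate. *Timd4* (chr11:46701620-46735177, plus strand), a receptor for phosphatidylserine on dying cells, was the most variable of the 4 in MLPKO. It was at 1.71, 0.190, 1.34, 2.24 and 0.927 CPM in MLPKO and at 1.26, 1.83, 1.64, 1.58 and 1.94 CPM in cRADΔ/Δ-MLPKO mice 1 to 5. All 5 cRADΔ/Δ-MLPKO mice lay inside the MLPKO range, and MLPKO mouse 2 was the lowest of the 10 (log2 fold change 0.36 ± 0.42, edgeR adjusted p = 0.675).

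Neither monocyte gene was called, and their estimates lay near 0 with wide errors. *Ly6c2* (chr15:74980003-74988467, minus strand) was at 1.18, 1.46, 1.13, 0.747 and 1.54 CPM in MLPKO mice 1 to 5 and at 0.898, 0.523, 1.39, 1.58 and 1.67 CPM in cRADΔ/Δ-MLPKO mice 1 to 5. The groups overlapped almost fully, and the log2 fold change came to 0.01 ± 0.32, with adjusted p = 0.993 in edgeR and a sign that turned in several other settings. The standard error leaves room for a change in either direction.

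*Plac8* (chr5:100701591-100720111, minus strand), a gene of monocytes and other leukocytes, had 20, 16, 8, 4 and 4 counts in MLPKO mice 1 to 5 and 4, 10, 12, 16 and 8 counts in cRADΔ/Δ-MLPKO mice 1 to 5. It did not pass the filter, and without the filter its log2 fold change was −0.10 ± 0.56. A difference in *Plac8* was not detectable at this depth.

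**Figure D2:**
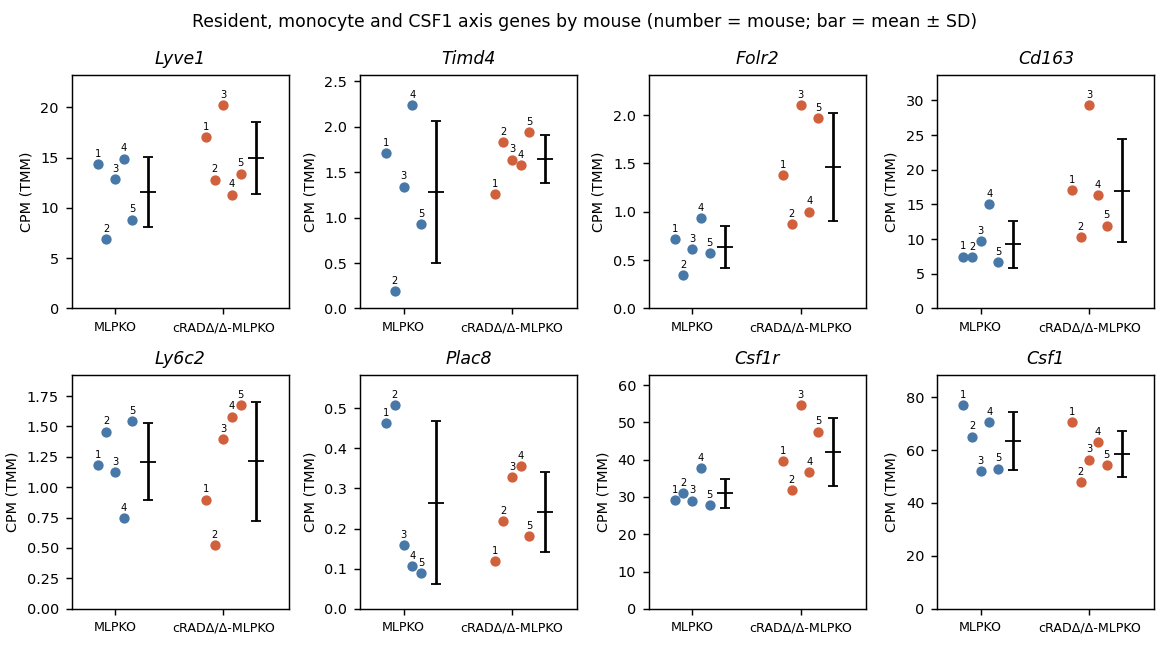
CPM (TMM scaled) of 4 resident genes, 2 monocyte genes, *Csf1r* and *Csf1*, with 1 numbered point per mouse and the mean ± SD (n = 5) beside each group. *Folr2* and *Cd163* are higher in most cRADΔ/Δ-MLPKO mice, whereas *Ly6c2*, *Plac8* and *Csf1* overlap fully or nearly so.

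The resident genes were set against the monocyte genes mouse by mouse, as the average log2 CPM of the 4 minus that of the 2. This difference was 2.13, 0.7001, 2.74, 3.76 and 2.40 in MLPKO mice 1 to 5 and 3.60, 3.32, 3.21, 2.38 and 3.01 in cRADΔ/Δ-MLPKO mice 1 to 5, on the log2 scale. The means were 2.34 ± 1.11 and 3.10 ± 0.457 (SD, n = 5), and the groups overlapped, with MLPKO mouse 4 the highest of all and MLPKO mouse 2 the lowest. The gap between the means was 0.76, with a difference of 0.76 in the resident part and of 0.00026 in the monocyte part. The monocyte part had an SD of 0.57 in MLPKO and 0.50 in cRADΔ/Δ-MLPKO and rests partly on *Plac8*, which did not pass the filter. Its difference was −0.094 without cRADΔ/Δ-MLPKO mouse 3, so the value near 0 is not a precise one. The gap was 0.35 without MLPKO mouse 2 and 1.11 without MLPKO mouse 4, and 0.73 without cRADΔ/Δ-MLPKO mouse 3. As the genes were chosen with earlier results known, this contrast is a description without a test.

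The receptor of the CSF1 axis was higher by estimate and its ligand was not. *Csf1r* was at 29.1, 31.1, 29.1, 37.7 and 27.8 CPM in MLPKO mice 1 to 5 and at 39.6, 31.8, 54.6, 36.6 and 47.6 CPM in cRADΔ/Δ-MLPKO mice 1 to 5. MLPKO mouse 4 lay above cRADΔ/Δ-MLPKO mice 2 and 4, and the other MLPKO mice lay below the whole other group. The log2 fold change was 0.44 ± 0.14, with adjusted p = 0.0955 in edgeR and 0.0330 in DESeq2. *Csf1r* overlaps the opposite-strand *Hmgxb3*, whose own log2 fold change was 0.03 ± 0.06.

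*Csf1* (chr3:107648364-107667806, minus strand), made largely by fibroblasts and endothelium, was at 76.9, 65.1, 52.0, 70.5 and 53.0 CPM in MLPKO and at 70.6, 47.8, 56.4, 63.1 and 54.3 CPM in cRADΔ/Δ-MLPKO mice 1 to 5. The groups overlapped, with a log2 fold change of −0.12 ± 0.13 and adjusted p = 0.640 in edgeR. *Il34*, the other ligand of CSF1R, had a log2 fold change of −0.43 ± 0.21 (edgeR adjusted p = 0.260). In a list of 19 other genes of CSF1 receptor signalling and myeloid growth factors, 17 were tested, 12 had a higher estimate, and edgeR called 0 while DESeq2 called 1 higher, with a median log2 fold change of 0.12. By smallest p these were *Csf2rb*, the shared receptor chain for granulocyte-macrophage colony-stimulating factor (0.70 ± 0.19, edgeR adjusted p = 0.0690, groups not overlapping), and *Plcg2*, a phospholipase downstream of immune receptors (−0.46 ± 0.16, edgeR adjusted p = 0.127). *Csf2rb* has a near copy, *Csf2rb2*, with which its reads may be confused.

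The other scavenging and tissue macrophage genes all had higher estimates, 7 of 7, with edgeR calling 0 and DESeq2 4. *Vsig4*, a complement receptor for clearing opsonised particles, had the largest estimate of the 37 (1.49 ± 0.46, edgeR adjusted p = 0.0926), at a mean of 0.488 CPM in MLPKO and 1.39 CPM in cRADΔ/Δ-MLPKO. cRADΔ/Δ-MLPKO mouse 3 was its highest mouse at 2.73 CPM, and without this mouse the estimate was 1.10 (edgeR adjusted p = 0.193). The median of the 7 genes was 0.66 with this mouse and 0.48 without it. *Cbr2*, a carbonyl reductase marking resident macrophages, had an estimate of 0.74 ± 0.22, *F13a1*, the A chain of coagulation factor XIII, of 0.75 ± 0.26, and *Pf4*, platelet factor 4, of 0.66 ± 0.21 on the log2 scale. *Maf*, a transcription factor of mature macrophages, had an estimate of 0.50 ± 0.15, *Mrc1*, the mannose receptor, of 0.46 ± 0.16, and *Stab1*, a scavenger receptor, of 0.27 ± 0.11. *Stab1* overlaps the opposite-strand *Nt5dc2*, which itself had an estimate of 0.73 ± 0.33. Of the 7, DESeq2 called *Vsig4*, *Cbr2*, *Pf4* and *Maf*, whereas *F13a1*, *Mrc1* and *Stab1* passed in neither tool.

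Among 7 phagocytic and pattern receptors, 6 had higher estimates and DESeq2 called 3. *Adgre1* (chr17:57665573-57790527, plus strand) encodes F4/80, the classical surface marker of mouse macrophages. It was at 8.32, 9.06, 6.67, 8.80 and 6.71 CPM in MLPKO mice 1 to 5 and at 13.9, 9.01, 14.4, 10.0 and 12.8 CPM in cRADΔ/Δ-MLPKO mice 1 to 5, values singled out after they were seen. Only MLPKO mouse 2 reached the other group, by exceeding cRADΔ/Δ-MLPKO mouse 2 (log2 fold change 0.60 ± 0.15, adjusted p = 0.0532 in edgeR and 0.00434 in DESeq2). *Clec4n*, the fungal sensor dectin-2, differed by 0.90 ± 0.27 and *C5ar1*, the receptor of complement C5a, by 0.63 ± 0.20 on the log2 scale, and both were called by DESeq2. *Cd68*, a lysosomal glycoprotein, had an estimate of 0.61 ± 0.22, *Cd14*, the co-receptor for bacterial lipopolysaccharide, 0.40 ± 0.26, and *Trem2*, a lipid-sensing receptor, 0.19 ± 0.26. *Mertk*, the kinase through which macrophages take up dying cells, was the exception at −0.02 ± 0.21, and without cRADΔ/Δ-MLPKO mouse 3 its estimate was −0.20.

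The 4 Fc receptors and signalling adaptors lay close to each other, from 0.45 for *Fcgr3* to 0.60 for *Tyrobp*. *Tyrobp* (chr7:30113170-30117010, plus strand) encodes DAP12, the adaptor through which TREM2 and other receptors signal. It was at 3.47, 3.80, 2.76, 4.21 and 3.53 CPM in MLPKO mice 1 to 5 and at 5.15, 4.66, 7.37, 4.70 and 4.98 CPM in cRADΔ/Δ-MLPKO mice 1 to 5 (chosen after the values were seen). The groups did not overlap, which was so for 2 of the 37 genes, both higher, and for 2.64% of all genes in that direction. The log2 fold change was 0.60 ± 0.16 (adjusted p = 0.0654 in edgeR and 0.0111 in DESeq2), and 0.46 without cRADΔ/Δ-MLPKO mouse 3. *Fcgr1* (0.47 ± 0.16), *Fcgr3* (0.45 ± 0.17) and the shared signalling chain *Fcer1g* (0.45 ± 0.19) were called by neither tool. The Fc receptor genes resemble each other in sequence, so reads may be split between them.

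Lysosomal and secreted effector genes were higher by estimate in 5 of 5, and DESeq2 called 4. *Ctss* (chr3:95433963-95463717, plus strand), the lysosomal protease cathepsin S, was the other gene without overlap: 9.06, 8.68, 6.16, 6.88 and 8.21 CPM in MLPKO mice 1 to 5 and 14.0, 9.54, 18.5, 10.3 and 12.5 CPM in cRADΔ/Δ-MLPKO mice 1 to 5 (chosen after the values were seen). Its log2 fold change of 0.73 ± 0.18 had the smallest p of the 37, with adjusted p = 0.0518 in edgeR and 0.00286 in DESeq2. Its estimate without cRADΔ/Δ-MLPKO mouse 3 was 0.58. *Lyz2* went from a mean of 77.4 ± 15.2 to 136 ± 54.1 CPM (SD, n = 5), with 223 CPM in cRADΔ/Δ-MLPKO mouse 3 (log2 fold change 0.81 ± 0.23, edgeR adjusted p = 0.0785). Its near copy *Lyz1*, to which reads could be misassigned, had an estimate of 1.56 ± 0.45 at means of 0.555 and 1.65 CPM. *Mpeg1*, the pore-forming perforin-2, had an estimate of 0.58 ± 0.15 (edgeR adjusted p = 0.0570), *Laptm5*, a lysosomal membrane protein of leukocytes, 0.52 ± 0.15, and *Lgals3*, galectin-3, 0.63 ± 0.34, the last called by neither tool and reduced to 0.30 without cRADΔ/Δ-MLPKO mouse 3.

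Genes shared by leukocytes at large had a median of 0.43 over 7 genes, all higher by estimate, and DESeq2 called 1. That gene was *Cd53*, a tetraspanin (0.59 ± 0.18). *Spi1*, encoding PU.1, was at 0.59 ± 0.25 and at 0.37 without cRADΔ/Δ-MLPKO mouse 3. *Ms4a7* (0.61 ± 0.24) and *Ms4a6c* (0.43 ± 0.23) encode membrane proteins of macrophages. *Ptprc*, the common leukocyte antigen CD45, had an estimate of 0.36 ± 0.14, *Aif1*, which encodes the actin-binding IBA1, of 0.30 ± 0.26, and *Cd52*, a small surface glycoprotein of leukocytes, of 0.13 ± 0.21, and neither tool called them. The estimate of *Cd52* was −0.01 without cRADΔ/Δ-MLPKO mouse 3.

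**Figure D3:**
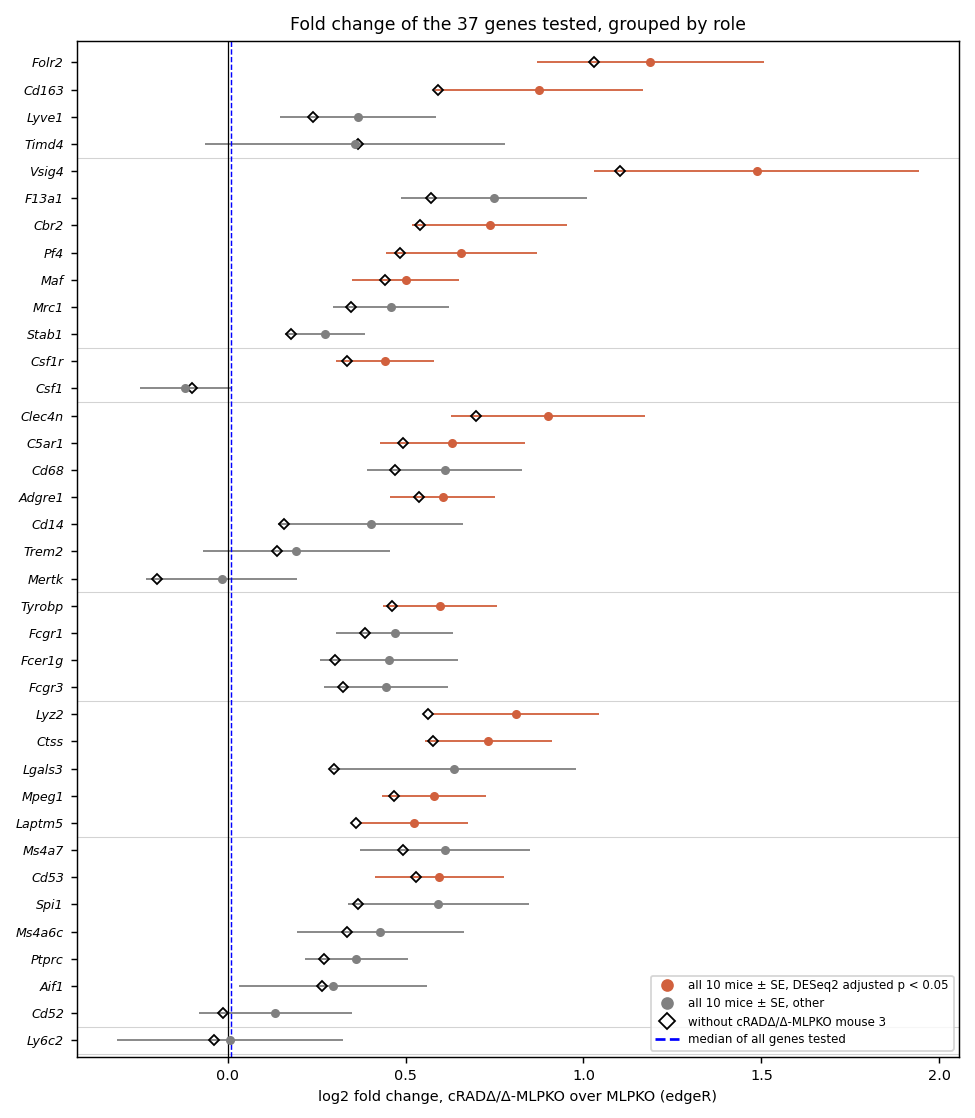
log2 fold change of cRADΔ/Δ-MLPKO over MLPKO from edgeR with its standard error (x axis) for the 37 genes tested, in blocks by role from resident genes at the top to the monocyte gene *Ly6c2* at the bottom, with coloured points for genes called by DESeq2. Open diamonds are fits without cRADΔ/Δ-MLPKO mouse 3 and the dashed line is the median of all genes, and nearly all diamonds lie left of their points but right of 0.

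Other genes of tissue macrophages were also mostly higher by estimate. Of 20 other tissue macrophage genes, 18 were tested and 15 had a higher estimate, with a median log2 fold change of 0.30. DESeq2 called 2 of them higher and edgeR 1, *Apoe*, the lipid carrier apolipoprotein E, which rose by 0.40 ± 0.08 (adjusted p = 0.0266) and which many other cells make. Its edgeR call was lost without cRADΔ/Δ-MLPKO mouse 3 (adjusted p = 0.0621), and likewise without MLPKO mouse 1 (0.0676), cRADΔ/Δ-MLPKO mouse 2 (0.0565) or mouse 5 (0.0728). The complement gene *C1qc* came next at 0.50 ± 0.15 (edgeR adjusted p = 0.0808), with *C1qa* and *C1qb* both at 0.44 ± 0.15. Among 13 repair and lipid-associated macrophage genes, 7 were higher and 6 lower by estimate, with a median of 0.01. This list shares *Apoe*, its only edgeR call, and its next gene was *Gpnmb*, a glycoprotein of lipid-laden macrophages (0.92 ± 0.25, edgeR adjusted p = 0.0676).

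Of 15 other monocyte genes 10 were tested, 4 had higher and 6 lower estimates, and the median log2 fold change was −0.05. edgeR called 0 of them, and DESeq2 called 2 higher and 1 lower. *Ccr2*, the chemokine receptor with which monocytes leave the bone marrow, was one of the former: its means were 1.00 ± 0.284 CPM in MLPKO and 2.03 ± 0.571 CPM in cRADΔ/Δ-MLPKO (SD, n = 5), a log2 fold change of 1.00 ± 0.26, with adjusted p = 0.0609 in edgeR and 0.00828 in DESeq2. The other was *Lyz1*, at 1.56 ± 0.45 (adjusted p = 0.0788 in edgeR and 0.0123 in DESeq2), and the gene called lower by DESeq2 was *Ace*, the angiotensin-converting enzyme that endothelium also makes, at −0.46 ± 0.15 (adjusted p = 0.0397, edgeR 0.117), named after its values were seen. *Chil3*, a chitinase-like gene of monocytes, did not pass the filter. The list's largest estimate, 3.82 for *Hp*, the haptoglobin gene that adipocytes also express, fell to 1.09 without cRADΔ/Δ-MLPKO mouse 3, where alone it was abundant.

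Few markers of other heart cells were called, but the summed levels of cardiomyocyte genes and of endothelial genes each separated the groups. For the 38 genes the sums overlapped, at 382 to 556 CPM in MLPKO and 457 to 882 CPM in cRADΔ/Δ-MLPKO. The summed CPM of 10 ventricular cardiomyocyte genes was between 60533 and 74221 in cRADΔ/Δ-MLPKO and between 78462 and 89780 in MLPKO, lowest in cRADΔ/Δ-MLPKO mouse 3. In that list 9 of 10 estimates were lower, DESeq2 called 3 lower and edgeR called 1, *Tnnt2*, the thin filament gene, which fell by 0.57 on the log2 scale (SE 0.09, adjusted p = 0.0184), with *Actn2*, which encodes alpha-actinin of the Z disc, next at −0.43 ± 0.11. The call of *Tnnt2* was lost without cRADΔ/Δ-MLPKO mouse 5 (edgeR adjusted p = 0.0590). The 7 endothelial genes all had higher estimates, with a median of 0.24 and 0 called by edgeR, 3 called higher by DESeq2, led by the receptor genes *Tie1* (0.22 ± 0.06) and *Kdr* (0.27 ± 0.08). Their summed CPM was between 1255 and 1430 in cRADΔ/Δ-MLPKO and between 1034 and 1212 in MLPKO. Of 8 fibroblast genes 4 were higher by estimate, with a median of 0.03, and edgeR called *Dpt*, the matrix gene of dermatopontin (0.93 ± 0.12, adjusted p = 0.00665), with *Col3a1* next (0.37 ± 0.20). Mitochondrial transcripts made up 21.4% to 22.6% of all counts (1 entry kept per gene name) in cRADΔ/Δ-MLPKO and 15.8% to 21.2% in MLPKO. The part of these differences in the macrophage values was not tested.

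**Figure D4:**
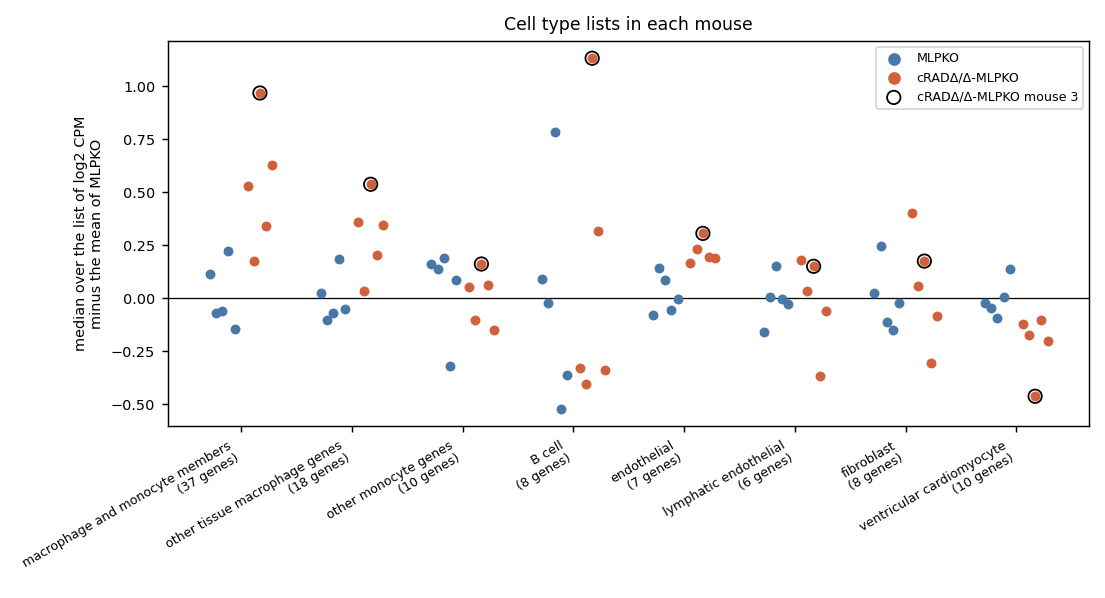
Median over each list of log2 CPM minus the MLPKO mean (y axis) for each mouse, by list (x axis, with the number of genes tested). The macrophage and monocyte genes and the other tissue macrophage genes sit mostly above 0 in cRADΔ/Δ-MLPKO mice and highest in the ringed mouse 3, endothelial genes lie slightly above 0, and cardiomyocyte genes below it.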

How the data were processed

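RNA of the apical ventricle of 10 mice was sequenced, and the authors deposited raw gene counts, not normalized. Reads were aligned with STAR to GRCm39 and counted with featureCounts after FastQC, per the labels and the study's methods. Versions, annotation and the settings for read pairs, strand and shared reads are not given in the sources used here. From 1 to 20 counts, 73.7% to 80.3% of values per library were even numbers, against 51.0% to 56.5% above 1000. Of 60676 genes, 3491 without a value were left out, and GENCODE M39 named 56629 of the rest.

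As in the study's methods, a gene entered the fits where 6 or more of the 10 mice had over 10 counts, and Gm and Rik genes were dropped. Genotypes were fitted in edgeR 4.0.16 by quasi-likelihood (TMM, Benjamini-Hochberg adjustment over all 13453 genes, threshold 0.05) in R 4.3.3, whereas the authors used DESeq2. DESeq2 1.42.0, limma-voom (limma 3.58.1), RLE size factors, no filter, filterByExpr, halved counts, a mouse number block and each mouse left out were alternatives. Fits were tested on simulated data. log2 CPM used a prior count of 2. Adjusted p-values are of the fits named.

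The 38 genes and all lists were chosen with earlier results of these data known, so no p is given for a list. Every gene was named, with values in each mouse for the resident, monocyte and CSF1 axis genes and for any of the 38 called by edgeR (none was), and the 2 genes of smallest p were named in each other list, besides *Rrad* and *Csrp3*. Genes outside this are marked as picked once values had been seen, or named because they overlap, copy or mark the genes described. Figures used Python 3.11.15 and matplotlib 3.10.9.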

Additional observations from a re-analysis of the deposited data

Results flagged for a closer look

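In 4 of 76 groups of 5 mice, 1 mouse lay far from the other 4 by Dixon's criterion, and chance alone flags about 5% of groups. In MLPKO mice, *Pf4* was at 8.11 CPM in mouse 4 and between 4.37 and 5.27 CPM in the others, and *Trem2* was at 3.04 CPM in mouse 4 and between 1.74 and 1.86 CPM in the others. *Cd52* was at 1.96 CPM in MLPKO mouse 2 and between 1.43 and 1.54 CPM in the other MLPKO mice. *Tyrobp* was at 7.37 CPM in cRADΔ/Δ-MLPKO mouse 3, the mouse with adipocyte transcripts, and between 4.66 and 5.15 CPM in the others of its group. The MLPKO groups of *Pf4* and *Trem2* thus stood lower without mouse 4, and the log2 fold changes without single mice reached 0.82 for *Pf4* and 0.37 for *Trem2*.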

How the results depend on the processing

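The estimates kept their direction for 33 of 38 genes in every fit run, over 713 fits of single genes, of which 19 turned the sign. The number of the 38 genes called was 0 in edgeR and stayed 0 with RLE size factors, limma-voom, filterByExpr, halved counts and the mouse number as a block. It was 16 in DESeq2, 4 without a filter, and 0 to 10 with single mice left out, all calls being of genes with higher estimates. Over all genes, edgeR called 369 and DESeq2 1298. The fits without single mice called from 47 (without MLPKO mouse 5) to 826 (without MLPKO mouse 4). In fits chosen after seeing the data, DESeq2 without cRADΔ/Δ-MLPKO mouse 3 called 6 of the 38 and 885 of all genes, and edgeR without this mouse and MLPKO mouse 2 called 0 and 159. The other lists had 3 calls in edgeR, 18 in DESeq2, 12 in DESeq2 without cRADΔ/Δ-MLPKO mouse 3, and 1 to 9 with single mice left out, alternatives which for these lists were also added after the data were seen.

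The sign turned for *Ly6c2*, with a log2 fold change of −0.075 in limma-voom, −0.0455 with the replicate block and −0.0478 in DESeq2 without cRADΔ/Δ-MLPKO mouse 3, and between −0.14 and 0.21 with single mice left out. With single mice left out, *Mertk* ranged from −0.20 to 0.11, *Trem2* from −0.0085 to 0.37, *Cd52* from −0.0138 to 0.27 and *Plac8* from −0.33 to 0.24. *Cd52* was at −0.0212 in DESeq2 without cRADΔ/Δ-MLPKO mouse 3. The cause of these changes was not tested. The resident minus monocyte difference was 0.76 with a prior count of 0.5, 0.88 without *Lyve1*, and 0.35 to 1.11 with single mice left out. Mouse numbers are shared by the genotypes but belong to different animals, and the correlations of same-numbered mice were 0.03, 0.07, 0.10, 0.15 and −0.04, so the numbers do not pair the mice. With the number as a replicate block, 281 genes were called in all. *Folr2*, *Timd4*, *Vsig4*, *Ly6c2* and *Plac8* rest on few counts, which limits how small a difference could be seen.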

Other observations

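Lists of other immune cells gave few counts in these hearts. Of 10 T cell genes only *Cd4*, which mouse macrophages can also carry, passed the filter (log2 fold change 0.45 ± 0.39). Of 10 neutrophil genes 4 were tested, 3 had higher estimates and edgeR called 0, led by the calcium-binding genes *S100a9* (1.17 ± 0.55) and *S100a8* (1.10 ± 0.58). Of 8 B cell genes 5 had higher estimates, edgeR called 0 and DESeq2 called 1 lower, *Blk*, a kinase of the B cell receptor, at −0.61 ± 0.17 (DESeq2 adjusted p = 0.0123), with *Cd79a*, a chain of that receptor, at 0.85 ± 0.51. Of 6 mast cell genes 4 were tested, edgeR called 0 and DESeq2 called 1 higher, *Kit*, the stem cell factor receptor, at 0.69 ± 0.20 (DESeq2 adjusted p = 0.0184), with the protease gene *Tpsb2* at −0.23 ± 0.55.

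Of 9 dendritic cell genes 3 were tested, all with higher estimates, including the transcription factor *Zbtb46* (0.16 ± 0.08) and the integrin *Itgax* (0.52 ± 0.49). In MLPKO the mean of *Zbtb46* was 16.2 CPM, against 2.14 CPM for *Clec9a* and 0.378 CPM for *Itgax*. Whether the *Zbtb46* reads came from dendritic cells was not tested. *Cd209a*, a lectin of dendritic cells derived from monocytes, did not pass the filter, yet its 2 groups did not overlap: 2, 4, 6, 8 and 8 counts in MLPKO mice 1 to 5 and 14, 26, 20, 16 and 12 counts in cRADΔ/Δ-MLPKO mice 1 to 5. Its log2 fold change was 1.65 ± 0.47 without the filter (edgeR adjusted p = 0.0894), and it was chosen after its values were seen. Every one of these counts was even, as were 73.7% to 80.3% of values from 1 to 20 in each library. Of the genes tested, 2.64% were higher without overlap, and the share among genes under the filter was not computed.

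Of 14 inflammatory cytokine and related genes 7 passed the filter, 6 of the 7 had lower estimates, and edgeR called 0 and DESeq2 0, with 0 at an unadjusted p under 0.05. *Nos2*, the inducible nitric oxide synthase, was at 0.35 ± 0.19 and the cytokine *Lif* at −0.49 ± 0.30. Of 19 myeloid transcription factors 16 were tested and 14 had higher estimates, with a median of 0.27. edgeR called 0 of them and DESeq2 1 higher and 1 lower, *Klf4*, a factor of monocyte development, at 0.35 ± 0.09 and *Bhlhe41*, a factor of some tissue macrophages and of muscle, at −0.35 ± 0.09.

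Lists of other tissue content gave 0 calls in edgeR. Among lymphatic endothelial genes, the receptor gene *Flt4* was at 0.13 ± 0.08 and *Reln* at −0.30 ± 0.24. The atrial list was led by *Nppa*, the natriuretic peptide gene that failing ventricles also express (−2.05 ± 0.72), and *Myl4*, an atrial myosin light chain (0.88 ± 0.68). Of 5 red cell genes 3 had higher estimates, with *Hbb-bt* at 0.28 ± 0.59 and *Alas2* at 0.17 ± 0.59.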
